A study of Homo sapiens with 28 samples.

Results

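The cells described here were HT-1080, a human fibrosarcoma line, and the genes were 10 amino acid transporters of the plasma membrane, or subunits of them, other than the cystine carrier SLC7A11. They were taken by gene symbol, as SLC3A2, SLC7A5, SLC7A6, SLC43A1, SLC7A1, SLC38A1, SLC38A2, SLC1A4, SLC1A5 and SLC6A9, from the 60286 rows of the count tables. All 10 passed the filter on low counts, as did 16325 genes in all. RNA was sequenced after an overnight treatment in 7 groups of 4 libraries, which the series text calls independent replicates of wild-type cells. Cells received DMSO as vehicle, RSL3 at 10 nM, linoleic acid (LA) at 80 µM, or its conjugated counterpart CLA18:2, also at 80 µM. In 2 further groups RSL3 was combined with either of these acids at the same doses, and in the last the conjugated acid CLA18:3 was given at 5 µM. The sample labels write mM for the fatty acids where the series text has µM, and µM is used here. RSL3 blocks GPX4, which detoxifies peroxidised membrane lipids, and can thereby set off ferroptosis, the form of cell death that such lipids cause. The isomers LA and CLA18:2 differ in whether their double bonds are conjugated, and the labels do not give the bonds' positions or geometry.

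Many of the carriers that bring amino acids into cells exchange one amino acid for another or couple uptake to sodium, but not all do. SLC3A2 encodes the heavy chain of CD98, a glycoprotein that carries no substrate itself and is needed to bring its light chains to the cell surface. SLC7A5 (LAT1, large neutral amino acids), SLC7A6 (an exchanger of cationic and neutral amino acids) and SLC7A11 (cystine in exchange for glutamate) are light chains of SLC3A2. Cysteine, glutamate and glycine are the building blocks of glutathione, the cofactor with which GPX4 works. Several of these carriers are known targets of ATF4, the transcription factor of the amino acid response, which binds C/EBP-ATF response elements. NRF2, the factor of the oxidative stress response, binds antioxidant response elements.

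The windows from 250 bases before to 50 bases after each RefSeq transcription start (GRCh38.p14) were searched on both strands for the letters TGATGNAAN (C/EBP-ATF response element) and TGACNNNGC (antioxidant response element). The 10 genes had 17 such windows. The first motif matched in 5 of 17 windows, against 3.61% of all 35116 windows, and the second in 5 of 17, against 13.3%. No matches of the 2 motifs overlapped. By gene, 5 of 10 held a C/EBP-ATF match, against 4.45% of all 27305 genes, and 5 of 10 an antioxidant match, against 16.1%. Shares by gene were not corrected for the number of windows, which differs between genes. SLC3A2, SLC1A4, SLC1A5 and SLC38A1 each also had a window at a start further upstream that held no match. Of the 10 genes, 7 held at least 1 match in these windows and 3 held neither (SLC38A2, SLC43A1 and SLC6A9). The share of all genes with either motif was not computed, and bases outside the windows were not searched. A match describes letters only, and binding was not measured here. The sequences below are the 5 C/EBP-ATF matches and the antioxidant matches of SLC3A2, SLC7A5, SLC1A5 and SLC7A1, shown because SLC3A2, SLC7A5 and SLC1A5 rose with the conjugated acids and SLC7A1 fell, while SLC1A4 and SLC38A1 passed no test against DMSO. They are written 5′ to 3′ in the direction of the gene, with the match in capitals.
SLC3A2 antioxidant: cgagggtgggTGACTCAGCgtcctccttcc
SLC3A2 C/EBP-ATF: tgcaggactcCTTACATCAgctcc
SLC7A5 antioxidant: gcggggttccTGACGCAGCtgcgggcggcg
SLC1A5 antioxidant: cctggatcttGCGAGGTCAgctcccgctcc
SLC1A5 C/EBP-ATF: aggaagtggcTGATGCAAGctgtccagggt
SLC7A1 antioxidant: tgcccggcggTGACGCGGCcgagcgggccg
SLC7A1 C/EBP-ATF: ggcgcactgcTGATGAAACctggcgccgga
SLC1A4 C/EBP-ATF: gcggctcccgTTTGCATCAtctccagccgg
SLC38A1 C/EBP-ATF: cagacccgaaTGATGAAAAgggatcagcta

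In SLC3A2 both matches lay around the same start on the plus strand, the antioxidant one at position -37 (chr11:62881652-62881681) and the C/EBP-ATF one at position 37 (chr11:62881725-62881748), counted from the start to the first matched base. The C/EBP-ATF match of SLC3A2 was on the opposite strand and all 24 bases shown were exonic in the annotation. Its antioxidant match contains TGACTCA, the letters also known as the AP-1 site. The SLC7A5 match began at position -2 (chr16:87869490-87869519, minus strand). Of the SLC7A1 matches, the antioxidant one began at -85 (chr13:29595754-29595783) and the C/EBP-ATF one at 8 (chr13:29595662-29595691), both on the minus strand. The SLC1A5 matches belonged to separate starts on the minus strand, the antioxidant one at -111 (chr19:46787385-46787414, opposite to the gene) and the C/EBP-ATF one at -97 (chr19:46784892-46784921). The matches of SLC1A4 (chr2:64989381-64989410, opposite to the gene) and SLC38A1 (chr12:46266501-46266530, minus strand) began at -8 and -4. SLC7A6 held 2 further antioxidant matches in 1 window, at -197 and -29. Their sequences are not shown, although SLC7A6 also fell in CLA18:3 and RSL3+CLA18:2.

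Library totals ran from 16226270 to 24286824 counts, and the transporters had 91 to 14927 counts per library. Mitochondrially encoded genes took 0.290% to 2.18% of counts, and 8 libraries lay under 0.7% (3 of RSL3+CLA18:2, 2 of CLA18:2 and 1 each of RSL3, LA and CLA18:3, with 0 of DMSO and RSL3+LA). Fits without these 8 libraries are given beside the results whose call they change. The number of genes with a count was 23082 to 23636 in DMSO libraries, 21552 to 22801 in CLA18:2, 19212 to 21462 in RSL3+CLA18:2 and 18812 to 20653 in CLA18:3, and the part of this difference in the results was not tested. The 7 mesenchymal markers passed the filter, with their summed level at 8834 to 10989 CPM in single libraries. They were uneven, with 3289477 counts of FN1 over the 28 libraries and 1338873 of VIM, but 567 of S100A4 and 172 of THY1. The epithelial markers CLDN4, with 1605 counts, and KRT14, with 865, were above these last 2. Of the 7 epithelial markers 2 passed the filter, and the 7 summed to at most 6.62 CPM. The 6 blood markers summed to at most 0.849 and the 4 endothelial markers to at most 1.04, with no marker at 0 in every library. Exons of SLC7A6 share 3371 bases with SLC7A6OS on the opposite strand, and those of SLC6A9 share 404 bases with CCDC24. The strand setting of the counting is not given in the sources used here, so reads from these pairs cannot be told apart.

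Levels are given in CPM, counts brought to a common library total after TMM scaling (trimmed mean of M values), as mean ± SD with n = 4, and differences as log2 fold changes ± SE from edgeR with Benjamini-Hochberg adjusted p over all 16325 genes. A gene is called changed, higher or lower at an adjusted p below 0.05, and p values measure only the spread between these libraries. In RNA from whole cultures, fewer cells that express a gene and less RNA per cell cannot be told apart. Together the 10 genes held 0.191% of counts in DMSO, and the share was highest in CLA18:2 at 0.247% ± 0.00490. Compared per kilobase of exon in DMSO, SLC7A5 was the most abundant at 89.4 ± 1.33 CPM per kb, followed by SLC1A5 at 83.3 ± 1.64 and SLC38A2 at 56.6 ± 1.82. SLC7A1 (44.9 ± 0.875), SLC3A2 (38.6 ± 1.54) and SLC38A1 (18.0 ± 0.594) followed, and SLC7A6 (7.24 ± 0.289), SLC43A1 (3.73 ± 0.269), SLC1A4 (2.33 ± 0.115) and SLC6A9 (1.17 ± 0.123) were the least abundant on this scale. The light chain SLC7A11, at 1.94 ± 0.154 CPM per kb, lay between SLC1A4 and SLC6A9 in vehicle cells.

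**Figure D1:**
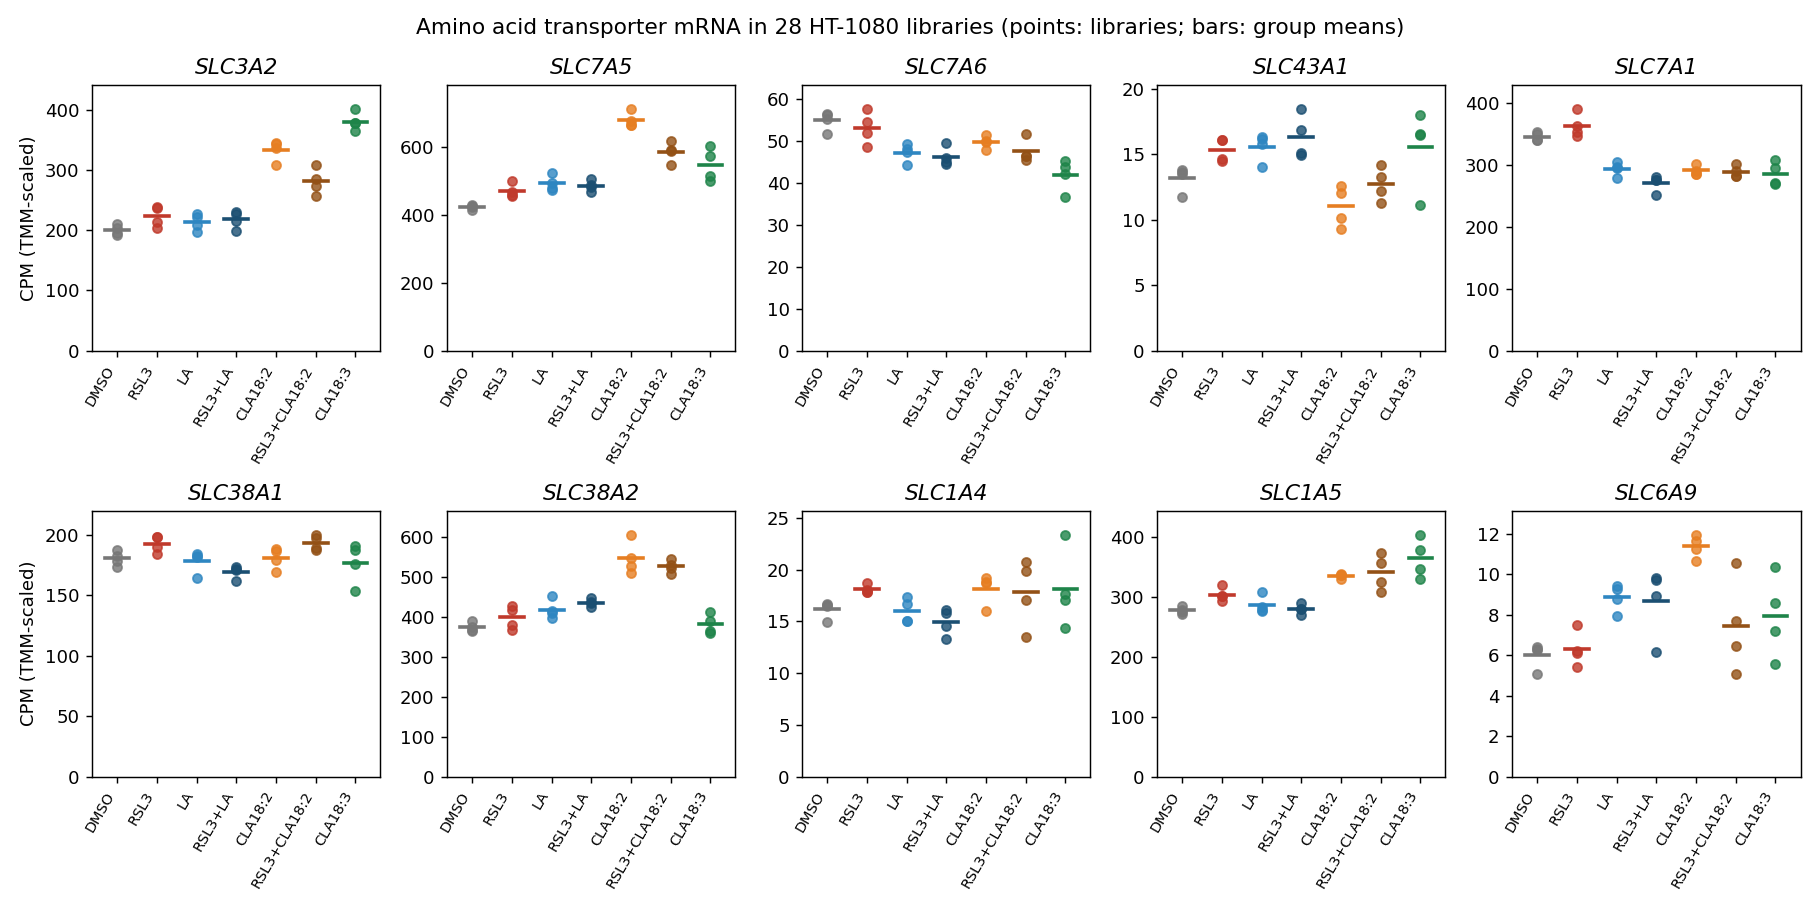
Each panel shows 1 transporter, with the TMM-scaled CPM of each of the 28 libraries as points (vertical axis from 0, own scale per gene) and the group mean as a bar, by treatment on the horizontal axis. SLC3A2 is highest in CLA18:3 (364 to 401 CPM) and SLC7A5, SLC38A2 and SLC6A9 have their highest means in CLA18:2.

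Each treatment was first set against the same 4 DMSO libraries, so the 6 comparisons share their control and their values are given side by side. In CLA18:2, 5 of 10 transporters rose and 1 fell, where 20.1% of all tested genes were called higher and 18.6% lower. In RSL3+CLA18:2, 4 rose and 2 fell (all genes 18.6% and 16.6%), and in CLA18:3, 3 rose and 2 fell (19.1% and 16.7%). In LA, 3 rose and 2 fell, against 4.91% and 3.41% of all genes, a count of 5 that went from 2 to 4 when any 1 library was left out. In RSL3+LA 2 rose and 2 fell, against 5.43% and 4.81%. In RSL3 alone edgeR called 0 of 10 higher and 0 lower (0.178% and 0.0245% of all genes), while 3 had an unadjusted p below 0.05 (989 of all 16325 genes did) and limma voom and DESeq2 also called 0. The median log2 fold change of the 10 genes was 0.22 in CLA18:2 (all genes -0.02), 0.20 in CLA18:3 (all genes 0.00) and 0.21 in RSL3+CLA18:2 (all genes -0.02). It was 0.11 in RSL3 (all genes 0.01), and 0.07 in both LA (all genes 0.00) and RSL3+LA (all genes 0.01). Groups did not overlap for 7 of the 10 in CLA18:2 (all genes 42%), 5 in CLA18:3 (31.7%) and 5 in RSL3+CLA18:2 (33.9%). The same count was 6 in LA (18.1% of all genes), 6 in RSL3+LA (18.7%) and 4 in RSL3 (6.56%). With libraries scaled by their totals alone, the share of all called genes that were higher in CLA18:3 was 38.4% in place of 53.4%, while the transporters' counts stayed 3 and 2.

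**Figure D2:**
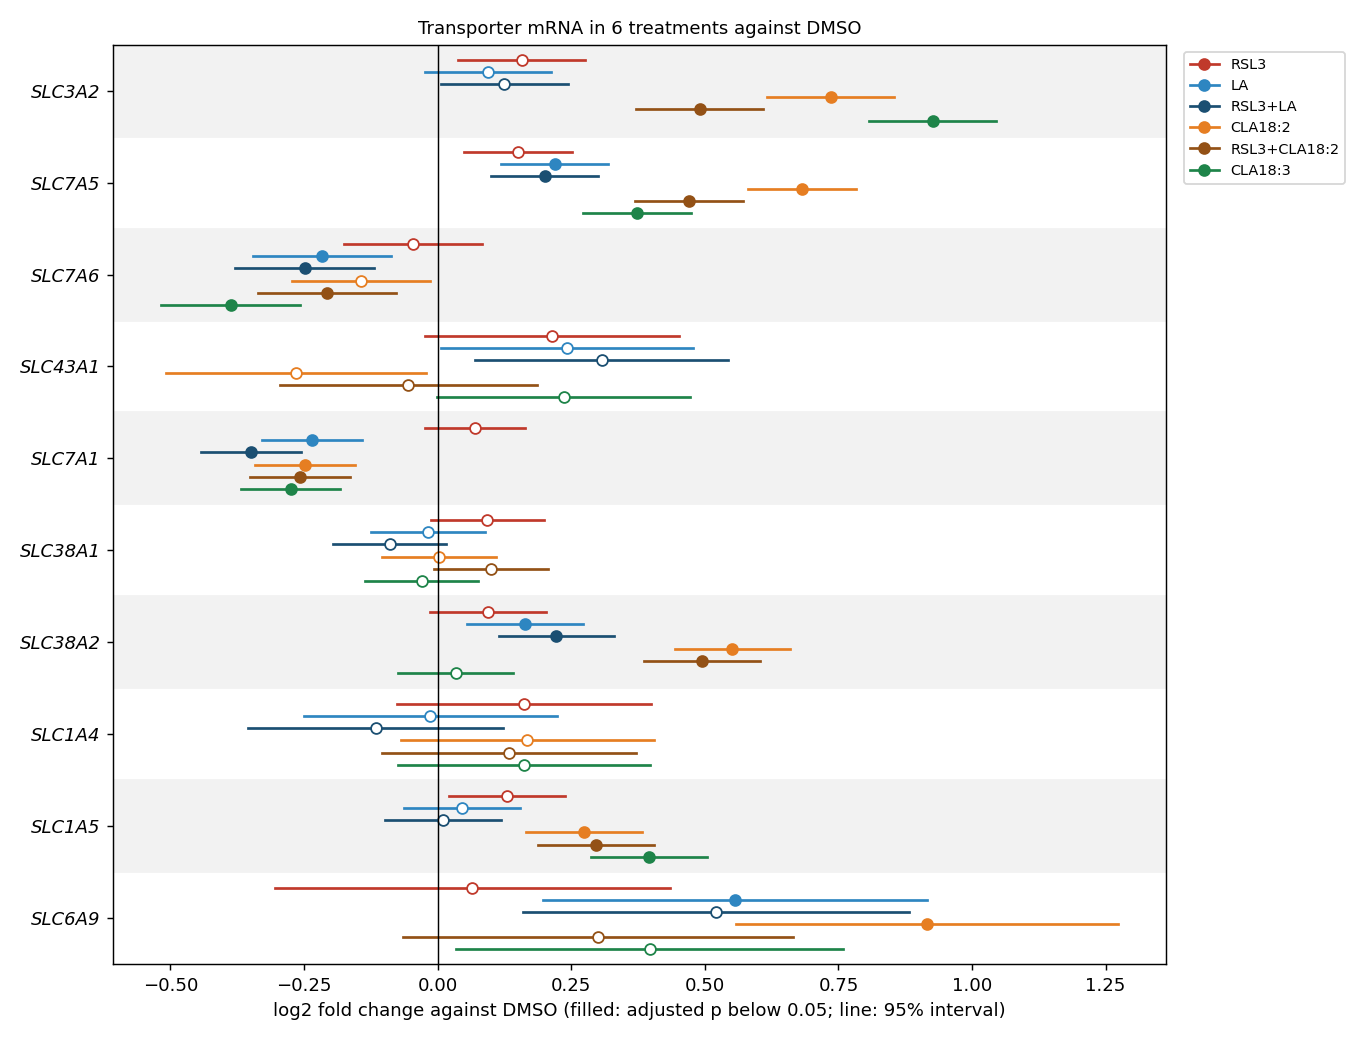
Log2 fold change of each transporter (vertical axis) in 6 treatments against DMSO (horizontal axis, log2 scale), with 95% intervals as lines and filled points where adjusted p was below 0.05. SLC7A1 lies left of 0 in all 5 groups that received a fatty acid, and SLC38A2 is at 0.55 in CLA18:2 and 0.03 in CLA18:3.

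SLC3A2 (chr11:62856102-62888875, plus strand, GRCh38), the shared heavy chain, rose in the 3 groups with a conjugated acid. Its 4 libraries lay at 195, 203, 209.5 and 192 CPM in DMSO and at 309, 342, 336 and 345 in CLA18:2. They lay at 364, 377, 378 and 401 in CLA18:3 and at 309, 285, 274 and 257 in RSL3+CLA18:2. Every library of these 3 groups was above every DMSO library, and CLA18:3 was highest. CLA18:2 and RSL3+CLA18:2 met without overlap, at 308.9 and 308.5 CPM. The log2 fold change was 0.93 ± 0.06, adjusted p = 7.4e-15 in CLA18:3 (1.90-fold), 0.74 ± 0.06, adjusted p = 1.2e-12 in CLA18:2 (1.66-fold) and 0.49 ± 0.06, adjusted p = 2.0e-08 in RSL3+CLA18:2 (1.40-fold). In RSL3 the libraries were at 238, 237, 204 and 213, in LA at 208, 222, 197 and 226 and in RSL3+LA at 231, 215, 199 and 227. These 3 groups overlapped with DMSO and with each other, with log2 fold changes of 0.16 ± 0.06, adjusted p = 0.585, of 0.09 ± 0.06, adjusted p = 0.440 and of 0.13 ± 0.06, adjusted p = 0.200.

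SLC7A5 (chr16:87830023-87869488, minus strand), the LAT1 light chain that imports leucine and other large neutral amino acids, rose in 5 of 6 treatments. It lay at 415, 429, 425 and 427 CPM in DMSO and at 713, 678, 666 and 665 in CLA18:2. The RSL3+CLA18:2 libraries were at 620.1, 589, 547 and 594 and those of CLA18:3 at 576, 499.8, 516 and 605. CLA18:2 stood above all other groups without overlap, while RSL3+CLA18:2 and CLA18:3 overlapped. The changes were 0.68 ± 0.05, adjusted p = 1.5e-13 in CLA18:2, 0.47 ± 0.05, adjusted p = 1.5e-09 in RSL3+CLA18:2 and 0.37 ± 0.05, adjusted p = 2.3e-07 in CLA18:3. LA, at 481, 495, 475 and 524, and RSL3+LA, at 484, 489, 469 and 506, also did not overlap with DMSO, and the changes were smaller, at 0.22 ± 0.05, adjusted p = 0.00272 and 0.20 ± 0.05, adjusted p = 0.00536. In RSL3 the libraries, at 467, 458, 456 and 501, were above those of DMSO as well, but the change of 0.15 ± 0.05, adjusted p = 0.403 was not called.

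SLC3A2 had its highest level in CLA18:3 and SLC7A5 in CLA18:2, and the ratio of SLC7A5 to SLC3A2 mRNA, both per kilobase of exon, was compared with DMSO, a comparison added after the data were seen. It was 2.33, 2.30, 2.21 and 2.43 in the DMSO libraries and 1.73, 1.44, 1.49 and 1.65 in those of CLA18:3, so the groups did not overlap. The means were 2.32 ± 0.0874 and 1.58 ± 0.132 (SD, n = 4), and a two-sided exact permutation test gave p = 0.0286, the smallest this design allows. Adjustment over 30 tests gave 0.0408. Those tests also covered SLC7A11 over SLC3A2, the share of SLC7A11 in light chain mRNA, all light chains over SLC3A2, and the summed light chains. Every test of SLC7A11 over SLC3A2, of that share and of the sum was at the smallest p. The adjusted value thus depends on which tests are counted together. In LA the SLC7A5 to SLC3A2 ratio was 2.53 ± 0.0828 (exact p = 0.0286, adjusted 0.0408). For LA, leaving out any 1 library other than DMSO replicate 4 gave an exact p of 0.0571. In CLA18:2 it was 2.24 ± 0.190 (exact p = 0.457), in RSL3+CLA18:2 2.29 ± 0.161 (exact p = 0.743), in RSL3 2.31 ± 0.225 (exact p = 1) and in RSL3+LA 2.44 ± 0.119 (exact p = 0.171). SLC7A11, the light chain that forms the cystine carrier, was at 19.4, 18.3, 16.8 and 20.3 CPM in DMSO, 226, 186, 198 and 178 in CLA18:2 and 133, 139, 141 and 109 in CLA18:3. Per kilobase it was 1.96 ± 0.162% of the summed light chain mRNA (SLC7A5, SLC7A6, SLC7A7, SLC7A8, SLC7A10 and SLC7A11) in DMSO, 11.9 ± 0.838% in CLA18:2, 11.4 ± 0.785% in RSL3+CLA18:2 and 10.1 ± 1.70% in CLA18:3. SLC7A5 thus remained the most abundant light chain mRNA in every group, and SLC7A7, SLC7A8 and SLC7A10 had at most 47 counts in any library.

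**Figure D3:**
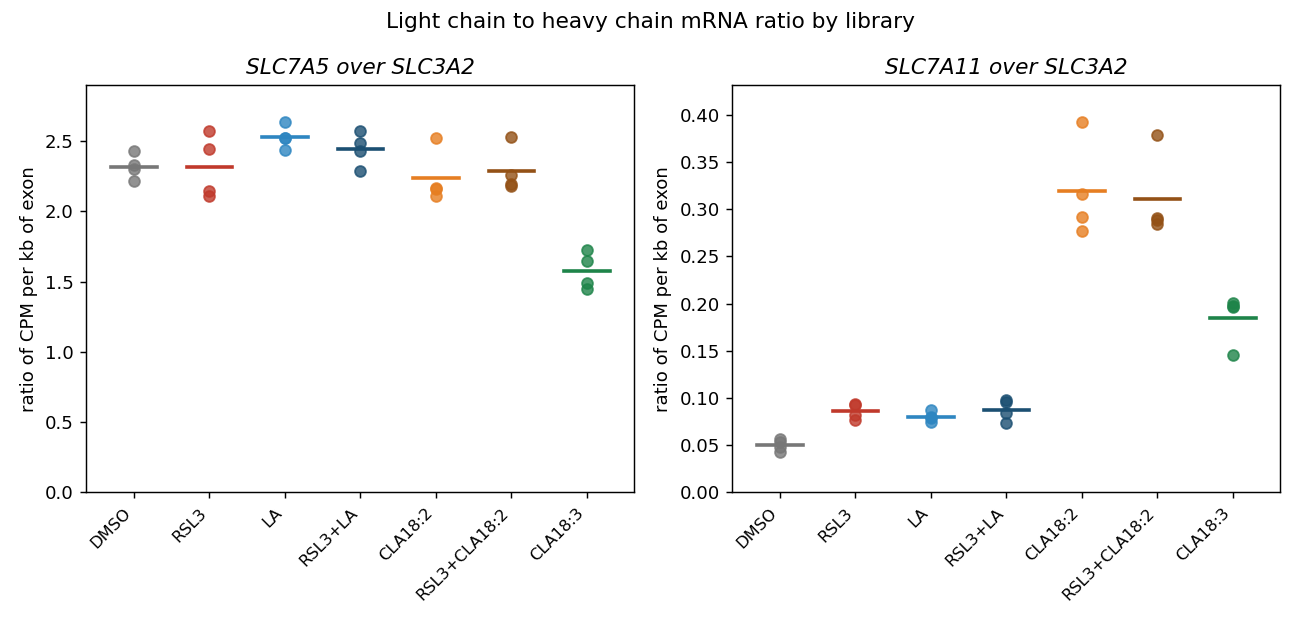
Ratios of CPM per kilobase of exon in each library (points) with group means (bars), for SLC7A5 over SLC3A2 on the left and SLC7A11 over SLC3A2 on the right, by treatment on the horizontal axis and with both vertical axes from 0. The CLA18:3 libraries have the lowest SLC7A5 to SLC3A2 ratios, 1.44 to 1.73, while SLC7A11 over SLC3A2 is highest in CLA18:2, at 0.277 to 0.392.

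SLC7A6 (chr16:68264516-68301823, plus strand), the other light chain of SLC3A2 among the 10, fell in 4 treatments. Its libraries were at 56.5, 56.2, 55.3 and 51.7 CPM in DMSO, 36.7, 45.2, 43.9 and 42.2 in CLA18:3 and 48.1, 47.3, 44.3 and 49.3 in LA. Both treated groups lay below DMSO without overlap. It fell in CLA18:3 (-0.39 ± 0.06, adjusted p = 1.0e-05), RSL3+LA (-0.25 ± 0.06, adjusted p = 0.00765), LA (-0.22 ± 0.06, adjusted p = 0.0262) and RSL3+CLA18:2 (-0.21 ± 0.06, adjusted p = 0.0101). In CLA18:2, at 47.9 to 51.4 CPM, the change of -0.14 ± 0.06, adjusted p = 0.0734 was not called (without DMSO replicate 4, adjusted p = 0.0499, and with only the 2 groups fitted, adjusted p = 0.0397), and in RSL3 it was -0.05 ± 0.06. Without the libraries low in mitochondrial counts the change in RSL3+CLA18:2, then resting on replicate 3 alone, was -0.08. The call in LA was lost without any 1 of DMSO replicates 1, 2 and 3 or LA replicates 2 and 3 (adjusted p 0.0554 to 0.106) and with no filter (adjusted p = 0.0552). SLC7A6OS, which shares exons with SLC7A6, was at 6.68 to 8.68 CPM in DMSO and 5.91 to 10.4 in CLA18:3, with a log2 fold change of 0.00 ± 0.16 that was not called.

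SLC43A1 (chr11:57484534-57515786, minus strand), a sodium-independent carrier of branched-chain amino acids that needs no heavy chain, was called in no treatment against DMSO. Its group means ran from 11.0 ± 1.56 CPM in CLA18:2 to 16.3 ± 1.65 in RSL3+LA, with DMSO at 13.2 ± 0.952. The log2 fold changes were -0.27 ± 0.12, adjusted p = 0.0790 in CLA18:2, 0.31 ± 0.12, adjusted p = 0.0952 in RSL3+LA and 0.24 ± 0.12, adjusted p = 0.116 in CLA18:3. With only the 2 groups fitted the RSL3+LA change was called (adjusted p = 0.0324). Without CLA18:3 replicate 2, at 11.1 CPM, the last was 0.37, adjusted p = 0.00646, and without CLA18:2 replicate 4 the first was -0.34, adjusted p = 0.0382.

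SLC7A1 (chr13:29509410-29595688, minus strand) encodes CAT1, the main carrier of arginine and lysine in many cells. It fell in all 5 treatments that included a fatty acid and was not called in RSL3. The DMSO libraries were at 339, 339.7, 349 and 352 CPM, those of LA at 295, 279, 295 and 304 and those of CLA18:2 at 301, 285, 286 and 290.0. Those of CLA18:3 were at 307, 268, 295 and 269.8, those of RSL3+LA at 276, 250.9, 276 and 281 and those of RSL3+CLA18:2 at 301, 282, 281 and 289.6. None of the 20 libraries with a fatty acid reached the lowest DMSO library, and the 5 groups overlapped with their neighbours in the order of means. The changes were -0.24 ± 0.05, adjusted p = 5.3e-04 in LA, -0.25 ± 0.05, adjusted p = 3.7e-05 in CLA18:2 and -0.28 ± 0.05, adjusted p = 1.2e-05 in CLA18:3. They were -0.35 ± 0.05, adjusted p = 8.4e-07 in RSL3+LA and -0.26 ± 0.05, adjusted p = 2.7e-05 in RSL3+CLA18:2. In RSL3 alone, at 346 to 389.5 CPM, the change was 0.07 ± 0.05, adjusted p = 0.933.

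SLC38A2 (chr12:46358189-46372867, minus strand), the sodium-coupled carrier SNAT2 that is known to be induced when cells lack amino acids, rose in the 4 treatments with LA or CLA18:2. It was at 374, 366, 364 and 391 CPM in DMSO, 606, 511, 547 and 526 in CLA18:2 and 523, 508, 529.7 and 545 in RSL3+CLA18:2. It was at 365, 391, 413 and 361 in CLA18:3, a group that overlapped with DMSO, while both groups with CLA18:2 lay above DMSO without overlap. SLC38A2 rose by 0.55 ± 0.05, adjusted p = 1.4e-10 in CLA18:2 and by 0.49 ± 0.05, adjusted p = 2.4e-09 in RSL3+CLA18:2, and in CLA18:3 the difference was 0.03 ± 0.05, adjusted p = 0.674, with an interval of -0.07 to 0.14. In LA, at 414, 396, 453 and 411, and RSL3+LA, at 424, 438, 447 and 434, it rose by 0.16 ± 0.05, adjusted p = 0.0492 and 0.22 ± 0.05, adjusted p = 0.00397, both groups above DMSO without overlap. The call in LA was lost with RLE scaling (adjusted p = 0.0568) and without any 1 of DMSO replicates 1 to 3 or LA replicates 1, 3 and 4 (adjusted p 0.0757 to 0.265). In RSL3, at 368 to 428 CPM, the change was 0.09 ± 0.05, adjusted p = 0.905.

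SLC38A1 (chr12:46183063-46270017, minus strand), the sodium-coupled glutamine carrier SNAT1, was not called in any treatment against DMSO. Its libraries lay at 174 to 188 CPM in DMSO, and all group means fell between 169 ± 5.05 in RSL3+LA and 193 ± 6.14 in RSL3+CLA18:2. The log2 fold change in CLA18:2 was 0.00 (interval -0.10 to 0.11) and in CLA18:3 -0.03 (interval -0.14 to 0.08).

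SLC1A5 (chr19:46774883-46788594, minus strand), the ASCT2 exchanger that takes up glutamine, rose in the 3 groups with a conjugated acid. It was at 275, 272, 285 and 279 CPM in DMSO, 330.2, 337, 338 and 338 in CLA18:2 and 379, 331, 347 and 404 in CLA18:3. The libraries of RSL3+CLA18:2 were at 374, 357, 308 and 325. All 12 were above the highest DMSO library, and the 3 groups overlapped in the order of means, CLA18:3 highest. The changes were 0.40 ± 0.05, adjusted p = 3.2e-07 in CLA18:3, 0.30 ± 0.05, adjusted p = 3.3e-05 in RSL3+CLA18:2 and 0.27 ± 0.05, adjusted p = 7.8e-05 in CLA18:2. Without the libraries low in mitochondrial counts the change in RSL3+CLA18:2, then resting on replicate 3 alone, which is assumed to vary like the other groups, was 0.16, adjusted p = 0.115. In RSL3, LA and RSL3+LA the changes were 0.13 ± 0.05, adjusted p = 0.697, then 0.05 ± 0.05, adjusted p = 0.765, and 0.01 ± 0.05, adjusted p = 0.959. RSL3, at 293 to 321 CPM, did not overlap with DMSO, while LA and RSL3+LA did.

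SLC1A4 (chr2:64988477-65023865, plus strand), the ASCT1 exchanger of alanine, serine and cysteine, was not called in any treatment. Its group means ran from 14.9 ± 1.28 CPM in RSL3+LA to 18.2 ± 1.45 in CLA18:2, with DMSO at 16.2 ± 0.800. The log2 fold changes lay between -0.12 (interval -0.36 to 0.12) and 0.17 (interval -0.07 to 0.40). Without the libraries low in mitochondrial counts the change in RSL3+CLA18:2, from replicate 3 alone, turned from 0.13 to -0.26 (adjusted p = 0.170). SLC1A4 had 261 to 478 counts per library, and its interval in CLA18:2 includes the 0.27 seen for SLC1A5.

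SLC6A9 (chr1:43991500-44031467, minus strand) encodes GlyT1, which takes up glycine with sodium and chloride, and had the lowest level of the 10. Its libraries were at 6.31, 6.43, 6.28 and 5.08 CPM in DMSO, 8.77, 9.30, 7.94 and 9.45 in LA and 11.3, 12.0, 11.6 and 10.7 in CLA18:2. The LA and CLA18:2 libraries were all above those of DMSO, and CLA18:2 was above LA without overlap. It rose by 0.92 ± 0.18, adjusted p = 6.2e-05 in CLA18:2 (1.89-fold) and by 0.56 ± 0.18, adjusted p = 0.0435 in LA. The LA call was lost without any 1 of the 8 libraries of the comparison (adjusted p 0.0515 to 0.149) and in the fit without the libraries low in mitochondrial counts, where the change was 0.52 (adjusted p = 0.0657). In CLA18:3 the libraries spread over 8.61, 5.57, 7.18 and 10.4, in RSL3+LA over 9.75, 6.17, 9.83 and 8.92 and in RSL3+CLA18:2 over 10.6, 5.07, 6.46 and 7.70. These 3 groups overlapped with DMSO, and their changes of 0.40 ± 0.18, adjusted p = 0.0818, of 0.52 ± 0.18, adjusted p = 0.0574 and of 0.30 ± 0.18, adjusted p = 0.204 were not called. Without replicate 2, the lowest library of each group, the change was 0.53 (adjusted p = 0.0184) in CLA18:3, 0.65 (adjusted p = 0.0165) in RSL3+LA and 0.44 (adjusted p = 0.0546) in RSL3+CLA18:2. The RSL3+LA change was called in 7 of 16 alternatives in all, the others being the replicate block (adjusted p = 0.0498), library totals alone (adjusted p = 0.0476), no filter (adjusted p = 0.0267), DESeq2 (adjusted p = 0.0442), only the 2 groups fitted (adjusted p = 0.0204) and no libraries low in mitochondrial counts (adjusted p = 0.0353). In RSL3 it was 0.06 ± 0.18, adjusted p = 0.998. CCDC24, which shares exon bases with SLC6A9, was at 3.05 to 4.85 CPM in DMSO and 3.20 to 3.59 in CLA18:2, a log2 fold change of -0.29 ± 0.24 that was not called. It was called in 1 comparison, RSL3+CLA18:2 against RSL3+LA (-0.73 ± 0.24, adjusted p = 0.0205), where SLC6A9 was at -0.22 ± 0.18, adjusted p = 0.390.

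The isomers LA and CLA18:2 were compared directly at 80 µM, as 1 pair of compounds alone and again with RSL3 in both groups. Alone, 4 of 10 transporters were higher in CLA18:2 and 1 was lower, where 15.6% and 14.6% of all genes were called. SLC3A2 was higher by 0.64 ± 0.06, adjusted p = 6.4e-11, SLC7A5 by 0.46 ± 0.05, adjusted p = 2.6e-09, SLC38A2 by 0.39 ± 0.05, adjusted p = 3.8e-07 and SLC1A5 by 0.23 ± 0.05, adjusted p = 9.9e-04. For all 4 the lowest CLA18:2 library was above the highest LA library. SLC43A1 was lower in CLA18:2, at 10.2, 9.27, 12.0 and 12.6 CPM against 15.8, 16.4, 14.1 and 16.2 in LA (-0.51 ± 0.12, adjusted p = 9.5e-04), again without overlap. SLC6A9 was without overlap too, which makes 6 of 10 (all genes 32.5%). For the remaining genes no difference was called, with intervals of -0.11 to 0.08 for SLC7A1, -0.09 to 0.13 for SLC38A1, -0.06 to 0.20 for SLC7A6, -0.06 to 0.42 for SLC1A4 and 0.01 to 0.71 for SLC6A9 (adjusted p = 0.117). The SLC6A9 difference was called with only the 2 groups fitted (adjusted p = 0.00795). SLC7A1, which fell with either isomer against DMSO, had the narrowest of these intervals.

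With RSL3 present, 5 of 10 were higher with CLA18:2 than with LA and 1 was lower (14.1% and 12% of all genes). SLC3A2 differed by 0.37 ± 0.06, adjusted p = 8.4e-06, SLC1A5 by 0.29 ± 0.05, adjusted p = 9.2e-05, SLC38A2 by 0.27 ± 0.05, adjusted p = 1.6e-04, SLC7A5 by 0.27 ± 0.05, adjusted p = 6.9e-05 and SLC38A1 by 0.19 ± 0.05, adjusted p = 0.00618. SLC43A1 was lower (-0.36 ± 0.12, adjusted p = 0.0197). In these 6 the groups did not overlap, nor did they for SLC7A1 (0.09 ± 0.05, adjusted p = 0.147), which was not called (all genes 23%). The RSL3+CLA18:2 libraries held 0.290% to 1.92% mitochondrial counts and those of RSL3+LA 1.64% to 2.18%. Without the 8 libraries under 0.7%, which leaves replicate 3 of RSL3+CLA18:2 alone, 2 of 10 were called. These were SLC3A2 (0.34, adjusted p = 0.00353) and SLC38A2 (0.29, adjusted p = 0.00811), while SLC7A5 was 0.17 (adjusted p = 0.0781), SLC1A5 0.15 (adjusted p = 0.163), SLC38A1 0.15 (adjusted p = 0.205) and SLC43A1 -0.53 (adjusted p = 0.0576). The SLC43A1 call was also lost without RSL3+LA replicate 1 (adjusted p = 0.0952) or RSL3+CLA18:2 replicate 3 (adjusted p = 0.0800), and SLC1A4, at 0.25 ± 0.12, adjusted p = 0.120, was called without the latter (adjusted p = 0.0131). With libraries scaled by totals alone 39.1% of all called genes were higher, in place of 54.0%, and the transporters' counts stayed 5 and 1.

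RSL3 was compared with its absence in 3 settings. Against vehicle, SLC7A5 had 0.15 ± 0.05, adjusted p = 0.403, SLC3A2 0.16 ± 0.06, adjusted p = 0.585 and SLC1A5 0.13 ± 0.05, adjusted p = 0.697, the 3 transporters with an unadjusted p below 0.05. Of the 10 values 9 were above 0, but none was called and all rest on the same RSL3 and DMSO libraries. The median of all genes was 0.01, and their share above 0 was not computed. SLC7A11 rose by 0.93 ± 0.10, adjusted p = 1.4e-07 in the same libraries. On top of LA, 0 of 10 were called higher and 0 lower (all genes 0.0368% and 0.0123%), 1 had an unadjusted p below 0.05 (1158 of all 16325 genes did), no groups were without overlap (all genes 5.46%), and limma voom and DESeq2 called 0. The change of largest size there was -0.11 for SLC7A1 (adjusted p = 0.565). On top of CLA18:2, 0 were higher and 3 fell (all genes 6.65% and 5.24%), namely SLC3A2 (-0.25 ± 0.06, adjusted p = 0.00341), SLC7A5 (-0.21 ± 0.05, adjusted p = 0.00314) and SLC6A9 (-0.62 ± 0.17, adjusted p = 0.0156). In each of these 3, and in no other of the 10, the groups did not overlap (all genes 14.5%), SLC6A9 at 5.07 to 10.6 CPM against 10.7 to 12.0. The SLC6A9 call was lost without RSL3+CLA18:2 replicate 2 (adjusted p = 0.0822) or 3 (adjusted p = 0.0513) and without the libraries low in mitochondrial counts, where the change was -0.82 (adjusted p = 0.0834) with a single RSL3+CLA18:2 library, a fit in which SLC1A4 was called (-0.50, adjusted p = 0.0493). By library totals alone 42.4% of all called genes were higher, in place of 55.9%, and the same counts of transporters, 0 and 3, were called.

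The interaction terms tested whether the difference made by RSL3 changed with the acid. With CLA18:2, 2 of 10 transporters were called, both lower than the sum of the separate differences, and 0 higher (all genes 1.8% lower and 1.75% higher). SLC3A2 had an interaction of -0.40 ± 0.08, adjusted p = 0.00337 and SLC7A5 of -0.36 ± 0.07, adjusted p = 0.00200, where RSL3 gave 0.16 and 0.15 in vehicle and -0.25 and -0.21 with CLA18:2. SLC7A11 also had a negative term, of -1.22 ± 0.13, adjusted p = 9.8e-08. For SLC6A9 the term was -0.68 ± 0.25, adjusted p = 0.145, with a wide interval of -1.19 to -0.17, and it was called without RSL3+CLA18:2 replicate 1 (adjusted p = 0.0322). With LA, edgeR called 0 of 10 in either direction (all genes 0% higher and 0.0245% lower), 4 had an unadjusted p below 0.05 (985 of all 16325 genes did), and limma voom and DESeq2 called 0. The values for SLC3A2 and SLC7A5 were -0.13 ± 0.08 and -0.17 ± 0.07 there. Without the libraries low in mitochondrial counts both CLA18:2 terms rest on 1 RSL3+CLA18:2 library, whose spread is taken from the other groups, and the values were -0.50 (adjusted p = 0.0177) for SLC3A2 and -0.41 (adjusted p = 0.0206) for SLC7A5.

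**Figure D4:**
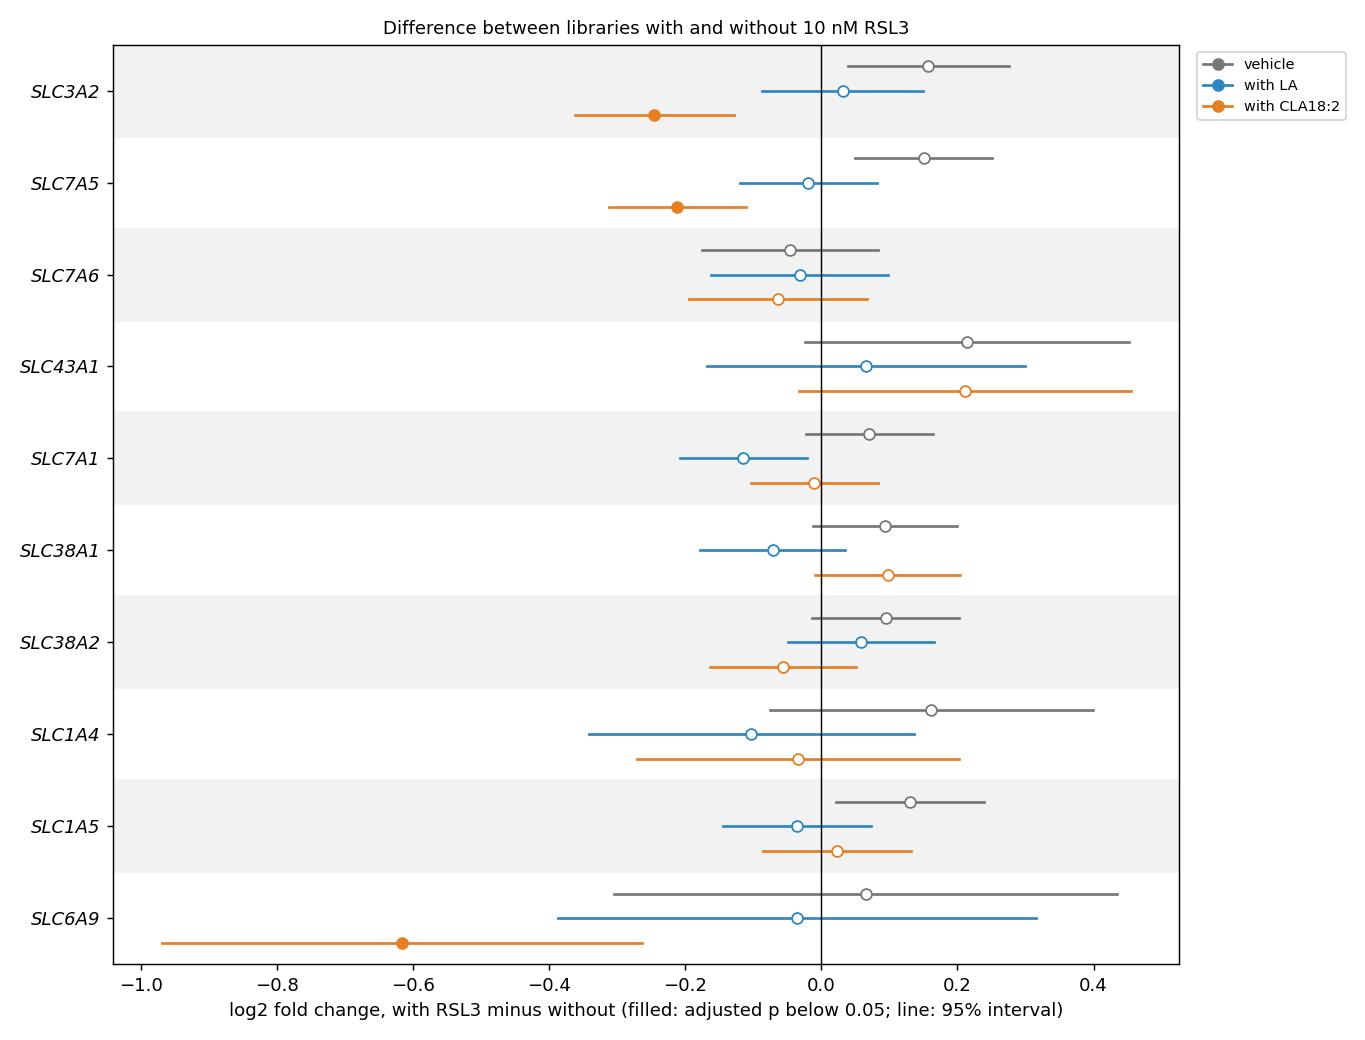
Difference between libraries with and without 10 nM RSL3 for each transporter (vertical axis) as a log2 fold change (horizontal axis), in vehicle, with LA and with CLA18:2, with 95% intervals as lines and filled points where adjusted p was below 0.05. SLC3A2 is at 0.16 in vehicle and -0.25 with CLA18:2, and the filled points belong to SLC3A2, SLC7A5 and SLC6A9 with CLA18:2.

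CLA18:2 at 80 µM and CLA18:3 at 5 µM were not tested against each other because the doses differ, and their values against the shared DMSO libraries stand side by side. SLC3A2 was at 0.74 with CLA18:2 and 0.93 with CLA18:3. SLC1A5 was at 0.27 and 0.40, and SLC7A1 at -0.25 and -0.28. SLC7A5 was at 0.68 and 0.37, SLC38A2 at 0.55 and 0.03, SLC6A9 at 0.92 and 0.40, and SLC7A6 at -0.14 and -0.39. SLC7A11 was at 3.40 and 2.81.

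Of 29 other amino acid carriers of the plasma membrane, 9 passed the filter, a number that includes SLC7A11. In CLA18:2, 5 of 9 tested were higher and 2 lower (median 0.82), against 20.1% and 18.6% of all genes. In CLA18:3, 4 of 9 tested were higher and 1 lower (median 0.31), against 19.1% and 16.7% of all genes. SLC7A11, SLC7A8 (2.29 ± 0.41, from a mean of 0.422 CPM) and the taurine carrier SLC6A6 (1.19 ± 0.06) rose most in CLA18:2. The cationic carrier SLC7A2 (-0.98 ± 0.06) and SLC16A10 (-0.78 ± 0.29) fell. SLC16A10 was low, with a mean of 3.03 CPM in DMSO and 1.74 in CLA18:2, and its libraries in these groups overlapped. In CLA18:3, SLC6A6 (0.38 ± 0.06) and SLC6A15 (0.34 ± 0.06), a carrier of neutral amino acids, rose and SLC7A2 (-0.77 ± 0.05) fell. SLC7A2, which like SLC7A1 carries cationic amino acids, was thus called lower with both acids.

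Among 10 carriers of the lysosome, 6 of 8 tested were higher and 0 lower in CLA18:2 (median 0.36, all genes -0.02). Of all genes, 20.1% were called higher and 18.6% lower there. The arginine and lysine exporter SLC66A1 (0.99 ± 0.07), SLC38A7 (0.47 ± 0.09) and the arginine sensor SLC38A9 (0.47 ± 0.10) rose most. In CLA18:3, 3 of 8 tested were higher and 0 lower (median 0.16), against 19.1% and 16.7% of all genes. The higher ones were SLC66A1 (0.84 ± 0.07), the cystine exporter CTNS (0.33 ± 0.06) and MFSD12 (0.29 ± 0.05). Of 12 mitochondrial carriers, 1 of 11 tested were higher and 5 lower in CLA18:2 (median -0.09), against 20.1% and 18.6% of all genes. Among them, SFXN2 (-0.90 ± 0.11), the ornithine carrier SLC25A15 (-0.53 ± 0.06) and the serine carrier SFXN1 (-0.48 ± 0.05) were lower and SLC25A29 (0.37 ± 0.11) higher. In CLA18:3, 2 of 11 tested were higher and 6 lower (median -0.18), against 19.1% and 16.7% of all genes. Here SFXN2 (-0.40 ± 0.11), SLC25A12 (-0.32 ± 0.08) and SLC25A15 (-0.26 ± 0.06) were lower. SLC25A18 (0.88 ± 0.32) and the glycine carrier SLC25A38 (0.25 ± 0.06) were higher. SLC25A18 was low, with a mean of 1.33 CPM in DMSO and 2.45 in CLA18:3, and its libraries in these groups overlapped.

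Among 12 genes of the amino acid response, 11 of 12 tested were higher and 0 lower in CLA18:2 (median 1.07, all genes -0.02). In CLA18:3, 9 of 12 tested were higher and 0 lower (median 1.02, all genes 0.00). Of all genes, 20.1% were called higher and 18.6% lower in CLA18:2, and 19.1% and 16.7% in CLA18:3. The largest were the stress factor DDIT3 (2.03 ± 0.15), NUPR1 (1.83 ± 0.70, under 1 CPM) and CEBPB (1.49 ± 0.09) in CLA18:2, and DDIT3 (1.92 ± 0.15), NUPR1 (1.90 ± 0.70) and CHAC1 (1.89 ± 0.15), which degrades glutathione, in CLA18:3. In LA and RSL3, 1 of 12 was higher in each, against 2 in RSL3+LA and 9 in RSL3+CLA18:2. The share of all genes called higher was 4.91% in LA, 0.178% in RSL3, 5.43% in RSL3+LA and 18.6% in RSL3+CLA18:2. That stress response genes were higher with the conjugated acids was known when this list was chosen, so its counts are no independent evidence of a direction.

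The pattern over the 28 libraries was described by Pearson's r of log2 CPM, with no test, since libraries of a group share a treatment. SLC3A2 went most closely with SLC1A5 (0.89) and SLC7A5 (0.76) among the 10, and SLC7A5 with SLC38A2 (0.74) and SLC1A5 (0.74). The correlation with ATF4 mRNA was 0.91 for SLC3A2, 0.87 for SLC1A5, 0.61 for SLC7A5, 0.22 for SLC38A2 and 0.13 for SLC6A9. For the other members it was 0.36 for SLC1A4, 0.08 for SLC38A1, -0.24 for SLC43A1, -0.27 for SLC7A1 and -0.47 for SLC7A6. With SLC7A11 the correlation was 0.90 for SLC7A5, 0.87 for SLC3A2, 0.81 for SLC1A5 and 0.68 for SLC38A2. It was 0.40 for SLC6A9, 0.35 for SLC1A4, 0.19 for SLC38A1, and -0.44 for both SLC7A6 and SLC43A1. SLC7A1 went with SLC7A6 (0.55) and against SLC7A11 (-0.47).

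Of 11953 other genes with a mean of at least 2 CPM, those most like SLC3A2 were ATP6V0E1 (0.96) and SERP1 (0.96), and those most like SLC7A5 SNX29 (0.95) and ENSG00000272405 (0.94). For SLC38A2 they were PARP4 (0.96) and FAF2 (0.94), for SLC1A5 LSM10 (0.92) and GPI (0.92) and for SLC7A1 CRIM1 (0.93) and FLNA (0.91). The genes least abundant or least changed had looser partners, TUG1 (0.82) and EDC4 (0.80) for SLC7A6, CSK (0.78) and LRRC45 (0.77) for SLC43A1, AP1B1 (0.77) and ZC3H3 (0.74) for SLC1A4, CPEB4 (0.81) and DDX3X (0.80) for SLC38A1 and RUSF1 (0.79) and SEMA4B (0.78) for SLC6A9.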

How the data were processed

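The 28 libraries were made from RNA of HT-1080 cells, with 4 replicates for each of the 7 treatments. The authors deposited raw counts per gene for each group, and HISAT, SAMtools, featureCounts, DESeq2 and the genome build hg38 are named in the submitters' processing notes, without roles. Versions, the annotation and the strand setting are not given in the sources used here. Counts were analysed as deposited. Of 60286 genes, 16325 passed edgeR's filterByExpr over the 7 groups, and they hold 99.9% of counts. All 28 libraries entered a single model of group means, with TMM scaling and edgeR's quasi-likelihood test (edgeR 4.0.16, limma 3.58.1, DESeq2 1.42.0, R 4.3.3), giving 10 comparisons of groups and 2 interactions, each adjusted by Benjamini-Hochberg with a threshold of 0.05. The SE is the size of the log2 fold change over the square root of F, and intervals are 95%. The procedure was also run on simulated counts, with independent libraries and the spread of each gene fitted to these data. The simulation left out differences between libraries in mitochondrial share and in the number of detected genes, so it does not cover them.

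Library totals were 16226270 to 24286824 counts. Levels per kilobase use the union of exon bases (GENCODE 29, GRCh38). Ratios were compared by exact permutation over libraries. The members and lists were chosen with earlier results of these data known. Named were all 10 transporters with SLC7A11, from each list at most 3 called genes in each direction with the largest change in CLA18:2 and CLA18:3 against DMSO, and for each transporter the 2 genes most correlated with it among those with a mean of at least 2 CPM. Values of SLC7A6OS and CCDC24 are given because they share exons with named genes. Scaling, filter, tool, groups fitted, replicate block and leaving out libraries were tried as alternatives. Figures were drawn with matplotlib 3.10.9 in Python 3.11.15.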

Additional observations from a re-analysis of the deposited data

Results flagged for a closer look

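In 7 of 70 sets of 4 libraries, 1 library stood apart from the other 3 by a gap above the critical value of Dixon's test, which chance alone passes in about 1 of 20 sets. In RSL3+LA replicate 2, SLC7A1 was at 250.9 CPM and the others at 276 to 281. SLC43A1 was at 11.8 CPM in DMSO replicate 4, against 13.5 to 13.8 in the others. In DMSO replicate 1, SLC1A4 was at 15.0 CPM and the others at 16.5 to 16.7. SLC1A4 was at 16.0 CPM in CLA18:2 replicate 3, against 18.7 to 19.2 in the others. In CLA18:2 replicate 1, SLC1A5 was at 330.2 CPM and the others at 337 to 338. SLC38A1 was at 164 CPM in LA replicate 2, against 182 to 184 in the others. In DMSO replicate 4, SLC6A9 was at 5.08 CPM and the others at 6.28 to 6.43.

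The difference made by RSL3 in vehicle and with CLA18:2 itself differed for SLC3A2, with an interaction of -0.40 (adjusted p = 0.00337), and for SLC7A5, with -0.36 (adjusted p = 0.00200). Every RSL3+CLA18:2 library of both genes lay below every CLA18:2 library.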

How the results depend on the processing

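Each result was recomputed with RLE scaling, library totals alone, no filter on low counts, DESeq2, limma voom, only the groups compared, a replicate block, and without each library in turn. Fits without the 8 libraries under 0.7% mitochondrial counts, and all alternatives of the SLC7A5 to SLC3A2 ratio, were chosen after the data were seen. Of 42 called results of single transporters, 0 reversed in 688 alternatives and 32 kept their call in all of them. Of 78 not called, 10 were called in some alternative. The count of called transporters in LA against DMSO was 5 and went from 2 to 4 without single libraries, and in RSL3+CLA18:2 against RSL3+LA it was 6, then 2 without the libraries low in mitochondrial counts and 5 to 6 without single libraries. The cause was not tested. SLC6A9, SLC43A1 and SLC1A4 had the fewest counts and the widest intervals, and the part of depth in this was not tested. With 4 libraries a group, the exact test of a ratio cannot go below 0.0286.

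The samples were treated as unpaired. The correlations below do not settle whether replicate numbers pair libraries in some of the groups. Of 84 correlations between same-numbered libraries of different groups, 1 was over 0.1 across all 16325 genes (median 0.0079), 28 across 9049 genes with a mean of at least 10 CPM (median 0.00080) and 37 across 4366 genes of at least 50 CPM (median 0.0078). All 4 correlations of a pair of groups were over 0.1 in 0, 0 and 2 of 21 pairs, the latter RSL3 with LA and RSL3 with RSL3+CLA18:2. With the replicate number as a block, 5 transporters were called in RSL3+LA against DMSO in place of 4, SLC6A9 being called with adjusted p = 0.0498, and the block changed no other call of the 10.

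Under library totals alone the values that changed sign were -0.0086 for SLC38A1 in CLA18:2 against DMSO, -0.041 for SLC38A2 in CLA18:3 against DMSO, -0.013 for SLC7A6 in RSL3+CLA18:2 against RSL3+LA and -0.0057 for SLC1A5 in RSL3+CLA18:2 against CLA18:2. Under the fit without libraries under 0.7% mitochondrial the values that changed sign were -0.039 for SLC38A1 in CLA18:2 against DMSO, -0.26 for SLC1A4 in RSL3+CLA18:2 against DMSO, 0.0017 for SLC7A1 in CLA18:2 against LA, -0.011 for SLC38A1 in CLA18:2 against LA, -0.14 for SLC1A4 in RSL3+CLA18:2 against RSL3+LA, 0.0091 for SLC7A5 in RSL3+LA against LA, 0.028 for SLC7A6 in RSL3+CLA18:2 against CLA18:2, -0.14 for SLC1A5 in RSL3+CLA18:2 against CLA18:2, 0.024 for SLC38A2 in RSL3+CLA18:2 against CLA18:2, -0.00029 for SLC7A6 in RSL3 by LA interaction and 0.040 for SLC7A6 in RSL3 by CLA18:2 interaction. Under no low-count filter the values that changed sign were -0.0014 for SLC38A2 in CLA18:3 against DMSO and -0.0027 for SLC38A1 in RSL3 by CLA18:2 interaction. Under limma voom the value that changed sign was 0.014 for SLC43A1 in RSL3 by CLA18:2 interaction. Leaving out single libraries turned the sign of further results that had no call, whose values ran from -0.025 to 0.13 for SLC6A9 in RSL3 against DMSO, -0.052 to 0.018 for SLC1A4 in LA against DMSO, -0.036 to 0.021 for SLC38A1 in LA against DMSO, -0.015 to 0.049 for SLC38A1 in CLA18:2 against DMSO, -0.068 to 0.033 for SLC38A1 in CLA18:3 against DMSO, -0.0056 to 0.061 for SLC38A2 in CLA18:3 against DMSO, -0.0078 to 0.026 for SLC1A5 in RSL3+LA against DMSO, -0.11 to 0.0079 for SLC43A1 in RSL3+CLA18:2 against DMSO, -0.036 to 0.019 for SLC7A1 in CLA18:2 against LA, -0.018 to 0.068 for SLC38A1 in CLA18:2 against LA, -0.0046 to 0.072 for SLC3A2 in RSL3+LA against LA, -0.038 to 0.0091 for SLC7A5 in RSL3+LA against LA, -0.10 to 0.097 for SLC6A9 in RSL3+LA against LA, -0.031 to 0.00076 for SLC7A1 in RSL3+CLA18:2 against CLA18:2, -0.12 to 0.073 for SLC1A4 in RSL3+CLA18:2 against CLA18:2, -0.024 to 0.061 for SLC1A5 in RSL3+CLA18:2 against CLA18:2, -0.027 to 0.056 for SLC7A6 in RSL3 by LA interaction, -0.073 to 0.016 for SLC38A2 in RSL3 by LA interaction, -0.17 to 0.032 for SLC6A9 in RSL3 by LA interaction, -0.059 to 0.025 for SLC7A6 in RSL3 by CLA18:2 interaction, -0.079 to 0.069 for SLC43A1 in RSL3 by CLA18:2 interaction, -0.025 to 0.027 for SLC38A1 in RSL3 by CLA18:2 interaction, -0.086 to 0.068 for SLC7A5 to SLC3A2 ratio in RSL3 against DMSO and -0.11 to 0.0093 for SLC7A5 to SLC3A2 ratio in RSL3+CLA18:2 against DMSO.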
